A study of Mus musculus with 6 samples.

Results

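Fkbp5, Tmprss2, Hoxb13, Foxa1, Acpp, Slc45a3 and Pmepa1, 7 genes that belong to the androgen receptor pathway or to the prostate lineage, were measured in irradiated prostates that carried 0, 1 or 2 copies of a mutant Trp53 allele. The genes were chosen by name among the 47719 gene identifiers of the data, each name matched 1 identifier, and all 7 passed the filter on low values that left 13818 genes for testing. RNA was sequenced from the prostates of 6 B6.129S4-Trp53tm3.1Tyj/J mice, each library from 1 mouse. Mice 39 and 41 were wildtype (Trp53+/+), mice 37 and 40 were heterozygous (Trp53R270H/+), and mice 47 and 49 were homozygous (Trp53R270H/R270H), where the numbers are those of the animals and R270H is a substitution in the DNA-binding domain of p53. The 6 mice shared an age of about 3 months, 5 Gy of whole body irradiation and dissection 6 h later, so no comparison involves an unirradiated prostate. The labels name the prostate gland and no lobe, and the RNA came from bulk tissue with all its cell types.

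The androgen receptor is a nuclear receptor that binds androgens, enters the nucleus and binds pairs of a short sequence, the hormone receptor half-site, in the control regions of its target genes. In the luminal cells of the prostate, which make the secretions of the gland, the transcription factors Foxa1 and Hoxb13 act with the receptor. Foxa1 is a forkhead pioneer factor that opens chromatin, and Hoxb13 is a homeobox factor that marks the prostate lineage. Tmprss2, a transmembrane serine protease, Slc45a3 (prostein), a membrane transporter, and Fkbp5, a co-chaperone of steroid receptors, are well known androgen-induced genes. Fkbp5 is also induced by glucocorticoids. Acpp encodes prostatic acid phosphatase, and Pmepa1 encodes an androgen-induced membrane protein that dampens TGF-beta signalling.

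The RefSeq promoter table (GRCm38.p6, 250 bases before to 50 bases after a transcription start) held 6 windows for 5 of the 7 genes, with Hoxb13 and Pmepa1 not among them. The windows of Foxa1 and Tmprss2 are shown because these 2 genes met the study's criterion for a difference between genotypes with the moderated test used here. Also shown is 1 of the 6 windows of Sgk1, another androgen- and glucocorticoid-responsive gene, because it alone of these 6 holds a complete androgen response element. Sgk1 was chosen for display after its promoter and values had been seen. Each is written from 5' to 3' along the gene's own strand, with every match to a searched motif in capitals. The Foxa1 window lies at chr12:57546062-57546361 (minus strand), that of Tmprss2 at chr16:97611146-97611445 (minus strand) and the one of Sgk1 at chr10:21993640-21993939 (plus strand).
Foxa1: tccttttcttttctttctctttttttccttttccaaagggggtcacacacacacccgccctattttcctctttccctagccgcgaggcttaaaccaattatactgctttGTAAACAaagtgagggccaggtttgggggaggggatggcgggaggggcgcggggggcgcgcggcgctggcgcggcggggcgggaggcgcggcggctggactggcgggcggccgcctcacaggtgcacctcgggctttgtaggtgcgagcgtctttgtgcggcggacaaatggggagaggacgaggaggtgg
Tmprss2: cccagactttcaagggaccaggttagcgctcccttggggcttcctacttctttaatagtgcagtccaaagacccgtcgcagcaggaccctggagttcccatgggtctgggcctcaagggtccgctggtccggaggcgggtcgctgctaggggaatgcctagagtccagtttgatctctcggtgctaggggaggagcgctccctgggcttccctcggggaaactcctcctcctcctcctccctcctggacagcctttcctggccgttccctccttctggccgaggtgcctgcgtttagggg
Sgk1: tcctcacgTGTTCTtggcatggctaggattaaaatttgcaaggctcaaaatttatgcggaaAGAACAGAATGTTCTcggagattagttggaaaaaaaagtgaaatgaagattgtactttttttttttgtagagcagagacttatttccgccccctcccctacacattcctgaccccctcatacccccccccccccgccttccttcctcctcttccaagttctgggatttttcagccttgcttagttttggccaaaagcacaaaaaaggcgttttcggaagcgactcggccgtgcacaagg
The capitals in the Foxa1 window are 1 match to the forkhead motif TGTTTAC on the opposite strand, 141 bases before the start. This motif was present in 3.65% of 32851 mouse promoter windows. In the Sgk1 window, the long run of capitals, 189 bases before the start, matches the androgen response element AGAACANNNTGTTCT, which was present in 3 of the 32851 windows (0.00913%), and the shorter run is a lone hormone receptor half-site (AGAACA on either strand, which forms both arms of the complete element and which 19.0% of windows held). No window of the 7 genes held the complete element or a half-site, and none held the Hoxb13 motif CCAATAAA, which 1.12% of windows held. Both strands were searched. These are matches of letters within these windows and do not show whether a factor was bound.

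Gene levels are given as FPKM, the fragment count deposited by the authors after division by transcript length and by the total of mapped fragments, a scale that is corrected for length and so allows levels of different genes to be compared. By the median over the 6 mice, the level of Hoxb13 was highest with 124 FPKM (range 77.0 to 154), followed by Foxa1 with 95.1 (69.6 to 145), Tmprss2 with 90.6 (37.5 to 152), Slc45a3 with 79.2 (59.9 to 148), Fkbp5 with 50.3 (29.3 to 59.8), Pmepa1 with 6.81 (4.94 to 7.22) and Acpp with 3.3 (2.32 to 4.59). The ranges of Hoxb13, Foxa1, Tmprss2 and Slc45a3 overlapped throughout, so the order among these 4 genes is not larger than the spread between mice. The range of Fkbp5 overlapped that of Tmprss2 and ended just under that of Slc45a3, and Pmepa1 and Acpp lay apart from the other 5 genes and from each other. Hoxb13 ranked between 409 and 858 among all 47719 identifiers, and Foxa1 between 442 and 960. Acpp, an abundant enzyme of the human prostate, ranked between 9396 and 11539 in these mouse prostates.

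**Figure D1:**
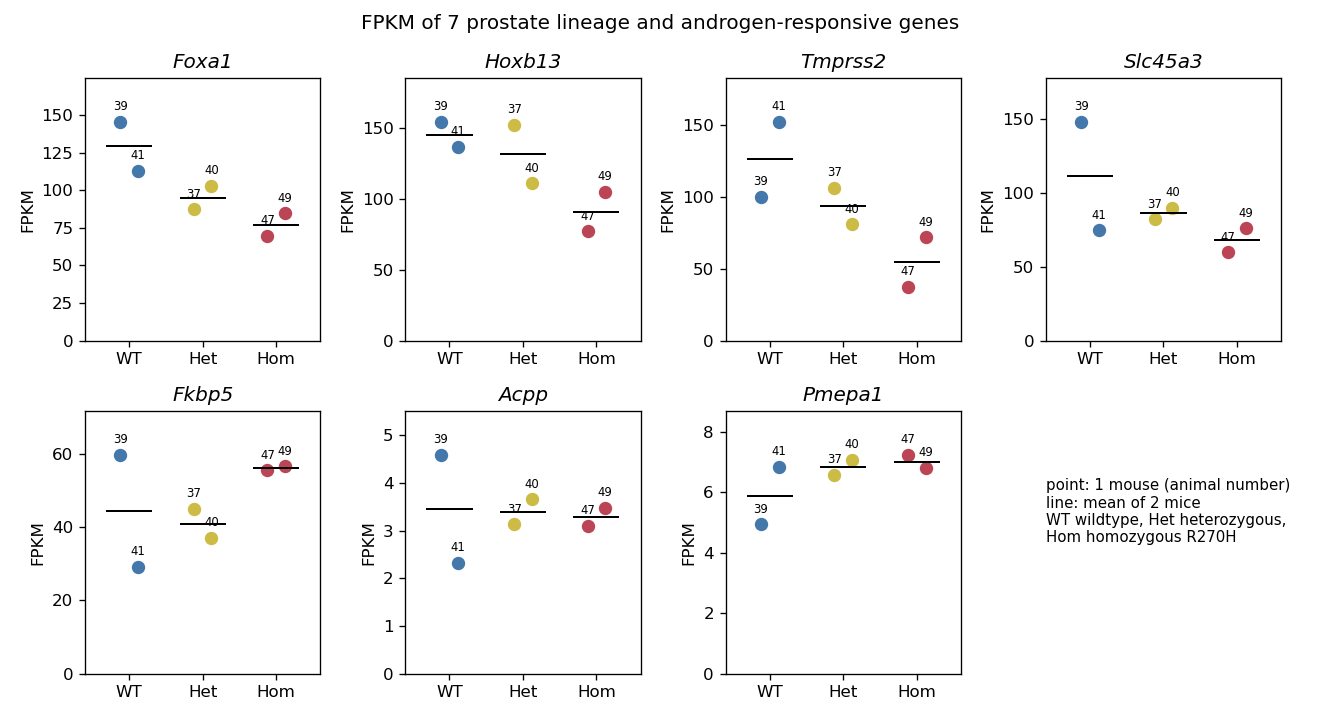
FPKM of the 7 genes in each mouse, with a separate vertical axis from 0 for each gene, points for mice with their animal numbers and lines for the mean of the 2 mice of a genotype. Both homozygous values lay below both wildtype values for Foxa1, Hoxb13 and Tmprss2, while the wildtype mice 39 and 41 differed by 1.98-fold to 2.04-fold from each other for Slc45a3, Fkbp5 and Acpp.

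The libraries had similar depth, from 0.785 to 1.06 of that of mouse 39 as estimated from the lowest values, but their tissue content differed. Of 6 secretory genes of the prostate, 5 were above 0 in all 6 mice, and Sbp was listed at 0 in 4 mice. Homozygous mouse 47 stood apart, with 257 FPKM of probasin (Pbsn) against 7329 to 11512 in the other mice and 131 FPKM of the dorsal prostate transglutaminase Tgm4 against 3179 to 9060. The low ends of both ranges were the values of homozygous mouse 49. Of the seminal vesicle genes, Svs6 reached 26147 FPKM in mouse 47 against 28.6 to 1021 in the others. Svs4 and Svs5 were listed at 0 in mouse 47, and Svs2 in both homozygous mice. These exact zeros of Svs2, Svs4, Svs5 and Sbp, beside high values in other mice, may be failed estimates and are not read as absence. Wildtype mouse 39 held little seminal vesicle RNA, with 153.5 FPKM summed over the 2 seminal vesicle genes above 0 in every mouse against 4015 to 43010 in the others. Results are therefore also given without mouse 47, in which case the spread of mouse 49 is taken from the other genotypes. R270H is a substitution, so the level of Trp53 cannot check the genotype labels.

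In the comparison of homozygous with wildtype mice, which asks what 2 mutant alleles in place of 2 normal ones change, the lineage factors Foxa1 and Hoxb13 and the protease Tmprss2 were lower, and none of the 7 genes was higher in both homozygous mice than in both wildtype mice, against 21.3% of all tested genes. Both homozygous values lay below both wildtype values for 3 of 7 genes, against 28.7% of all tested genes. An unadjusted p under 0.05 with a lower level was found for the same 3 genes by limma's moderated test, against 9.32% of all genes. After Benjamini-Hochberg adjustment over all 13818 genes, limma called 0 of the 7 genes in any comparison. Over all genes the adjusted test called 0.384% (53 genes) for homozygous against wildtype, 0% for heterozygous against wildtype, 0.0145% for homozygous against heterozygous, 0.355% for the slope over the number of mutant alleles and 0.101% for the F-test of the 3 genotypes. The criterion used by the study, an unadjusted p under 0.05 across the 3 genotypes with a 1.5-fold difference, was met by Foxa1 and Tmprss2, 2 of 7 genes against 8.31% of all tested genes (1148 genes), with the p here from the moderated F-test. Without mouse 47, 0 of the 7 genes and 962 of all tested genes met it by limma. The homozygous difference was then -0.60 for Foxa1, -0.47 for Hoxb13, -0.78 for Tmprss2, -0.47 for Slc45a3, 0.44 for Fkbp5, 0.08 for Acpp and 0.22 for Pmepa1 on the log2 scale, each in the same direction as with all mice.

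Foxa1 (ENSMUSG00000035451, chromosome 12 from 57540628 to 57546916, minus strand, GRCm38) had 145 and 113 FPKM in wildtype mice 39 and 41, 87.3 and 102.9 in heterozygous mice 37 and 40, and 69.6 and 84.7 in homozygous mice 47 and 49. Its values were ordered by the number of mutant alleles with no overlap between genotypes, the only such case among the 7 genes, against 4.98% of all tested genes. The mean level was 129 ± 22.8 FPKM in wildtype mice, 95.1 ± 11.01 in heterozygous animals and 77.1 ± 10.7 in homozygous animals (SD, n = 2 each). On the log2(FPKM + 0.1) scale, on which all differences below are given, homozygous mice were lower than wildtype mice by a log2 fold change of -0.74 (SE 0.19, 95% interval -1.21 to -0.27, limma adjusted p = 0.173). The heterozygous difference was -0.44 (SE 0.19, interval -0.90 to 0.03, limma adjusted p = 0.769), which is 58.9% of the homozygous one. The slope was -0.37 for each mutant allele (SE 0.09, limma adjusted p = 0.132). Without mouse 47 the homozygous difference was -0.60 (limma adjusted p = 0.427). The study's criterion was no longer met without mouse 47 or mouse 39, or after quantile or equal-sum scaling of the libraries. Foxa1 also missed it after centring on the luminal epithelial genes described below and with each gene tested alone.

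Hoxb13 (ENSMUSG00000049604, chromosome 11 from 96194316 to 96197447, plus strand) had 154 and 136 FPKM in wildtype mice 39 and 41, 152 and 111 in heterozygous mice 37 and 40, and 77.0 and 105 in homozygous mice 47 and 49. Homozygous values lay below all others, while heterozygous mouse 37 was level with the wildtype mice. Homozygous mice differed from wildtype mice by a log2 fold change of -0.69 (SE 0.23, interval -1.25 to -0.13, limma adjusted p = 0.222), and that of heterozygous mice was -0.16 (limma adjusted p = 0.951). Hoxb13 reached a 1.61-fold difference but missed the study's criterion on its p, and met it without heterozygous mouse 40 or homozygous mouse 49. Without mouse 47 its homozygous difference was -0.47 (limma adjusted p = 0.511).

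Tmprss2 (ENSMUSG00000000385, chromosome 16 from 97564682 to 97611195, minus strand) had 100.3 and 152 FPKM in wildtype mice 39 and 41, 106 and 80.9 in heterozygous mice 37 and 40, and 37.5 and 72.0 in homozygous mice 47 and 49. Both homozygous mice were lower than the other 4 mice, and the wildtype and heterozygous values overlapped. The mean in homozygous mice was 54.8 ± 24.4 FPKM (SD, n = 2), 43.4% of the wildtype mean of 126 ± 36.8, the largest difference among the 7 genes. The log2 fold change was -1.25 for homozygous against wildtype mice (SE 0.36, interval -2.15 to -0.35, limma adjusted p = 0.195) and -0.41 for heterozygous mice (SE 0.36, limma adjusted p = 0.911). Homozygous mice differed from heterozygous mice by -0.83 (limma adjusted p = 0.707), and the slope was -0.62 for each allele (SE 0.17, limma adjusted p = 0.148). The size depended on the homozygous mouse used, with a difference of -0.78 without that mouse (limma adjusted p = 0.453) and -1.72 without mouse 49. The study's criterion was met without mouse 39 or mouse 49 and was not met without any one of mice 41, 37, 40 and 47. Tmprss2 also missed it with no filter on low values, with no intensity trend and with each gene tested alone. The same held after quantile scaling and after centring on the luminal epithelial genes.

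Slc45a3 (ENSMUSG00000026435, chromosome 1 from 131962967 to 131982969, plus strand) had 148 and 74.9 FPKM in wildtype mice 39 and 41, 82.2 and 90.2 in heterozygous mice 37 and 40, and 59.9 and 76.2 in homozygous mice 47 and 49. Apart from the high value of mouse 39, the 6 mice lay close together, and mouse 41 lay between the homozygous values. The homozygous difference was -0.64 (SE 0.33, interval -1.45 to 0.17, limma adjusted p = 0.361). It depended on the wildtype mouse used, with -0.15 without mouse 39 and -1.13 without mouse 41, and the study's criterion was met only in the latter case. A small noncoding gene on the same strand, Gm29103, overlaps Slc45a3 and was listed at 0.677 to 1.12 FPKM, so that some fragments could have been assigned to either.

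Fkbp5 (ENSMUSG00000024222, chromosome 17 from 28399094 to 28517527, minus strand) had 59.8 and 29.3 FPKM in wildtype mice 39 and 41, 45.0 and 37.1 in heterozygous mice 37 and 40, and 55.6 and 56.7 in homozygous mice 47 and 49. The homozygous mice were nearly equal and above both heterozygous mice, but lay between the wildtype mice. Against wildtype mice the log2 fold change was 0.42 in homozygous mice (SE 0.33, interval -0.39 to 1.24, limma adjusted p = 0.532) and -0.03 in heterozygous mice (limma adjusted p = 0.997). The difference between homozygous and heterozygous mice was 0.46 (limma adjusted p = 0.714). Without mouse 39 the homozygous difference was 0.94 and Fkbp5 met the study's criterion, whereas without mouse 41 it was -0.09.

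Acpp (ENSMUSG00000032561, chromosome 9 from 104288251 to 104337748, minus strand) had 4.59 and 2.32 FPKM in wildtype mice 39 and 41, 3.13 and 3.66 in heterozygous mice 37 and 40, and 3.11 and 3.47 in homozygous mice 47 and 49. Both mutant genotypes lay within the range of the wildtype mice. Its homozygous difference of 0.01 had an interval from -0.81 to 0.82 (limma adjusted p = 0.994), which includes a 1.5-fold change in either direction.

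Pmepa1 (ENSMUSG00000038400, chromosome 2 from 173224458 to 173276533, minus strand) had 4.94 and 6.83 FPKM in wildtype mice 39 and 41, 6.57 and 7.06 in heterozygous mice 37 and 40, and 7.22 and 6.80 in homozygous mice 47 and 49. Wildtype mouse 39 was low and the other 5 mice were alike. The log2 fold change was 0.27 in homozygous mice (SE 0.18, interval -0.19 to 0.72, limma adjusted p = 0.487) and 0.23 in heterozygous mice (limma adjusted p = 0.897).

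**Figure D2:**
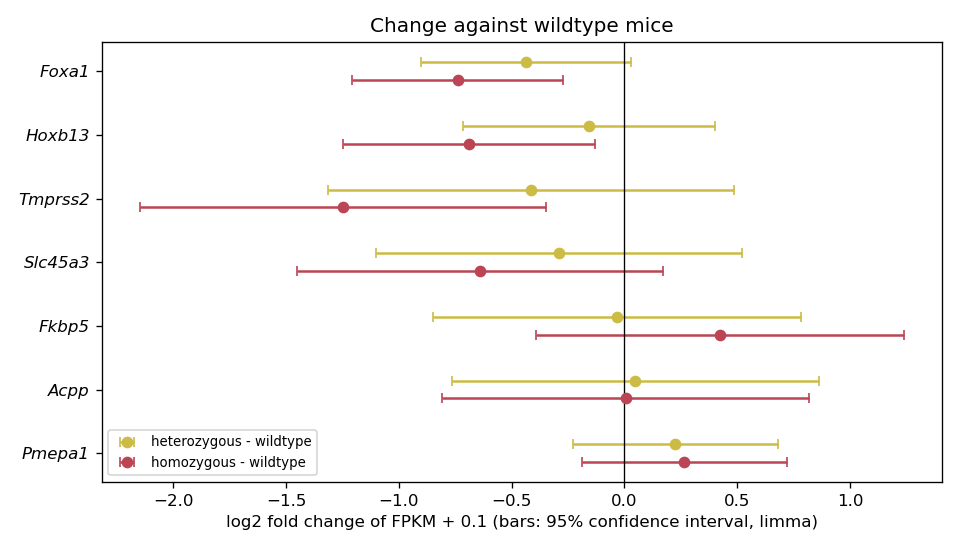
Log2 fold change of FPKM + 0.1 against wildtype mice on the horizontal axis for the 7 genes, with points for the estimates in heterozygous and homozygous mice and bars for the 95% interval from limma. The homozygous intervals of Foxa1, Hoxb13 and Tmprss2 lay below 0, and all other intervals included 0.

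For the allele dosage question, a slope below 0 with an unadjusted p under 0.05 by limma was found for Foxa1, Hoxb13 and Tmprss2, again 3 of 7 genes, against 10.5% of all tested genes (1448 genes). The slope of Slc45a3 was -0.32 for each mutant allele (limma adjusted p = 0.291), that of Fkbp5 was 0.21 (limma adjusted p = 0.502), that of Pmepa1 was 0.13 (limma adjusted p = 0.442) and that of Acpp was near 0. In heterozygous mice, no gene of the 7 had an unadjusted p under 0.05 against wildtype, and 949 of all tested genes did (644 higher, 305 lower). Heterozygous and homozygous mice were compared with the same 2 wildtype mice, so their differences share the error of these mice.

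The spread between mice of 1 genotype was uneven. The wildtype mice 39 and 41 differed by at least 1.5-fold for 4 of the 7 genes, against 15.7% of all tested genes. Mouse 39 was higher for Fkbp5 (2.04-fold), Slc45a3 (1.98-fold) and Acpp (1.98-fold), and mouse 41 was higher for Tmprss2 (1.52-fold). The heterozygous mice differed by as much for 0 of the 7 genes (7.37% of all genes), and the homozygous mice for Tmprss2 alone (1.92-fold, against 17.1% of all genes).

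The cell types of the tissue were described with marker lists, whose part in the differences of the 7 genes was not tested. Over 8 luminal epithelial genes (Epcam, Cdh1, Krt8, Krt18, Cldn3, Cldn4, Cldn7 and Cd24a), the summed level was 2024 and 2319 FPKM in wildtype mice 39 and 41, 2061 and 1778 in heterozygous mice 37 and 40, and 1684 and 1570 in homozygous mice 47 and 49. Both homozygous values were below both wildtype values for 5 of the 8 genes, against 28.7% of all tested genes. They were above for 0, against 21.3% of all tested genes. The mean log2 difference over the list was -0.365. In bulk tissue, fewer cells of a type and less RNA per cell cannot be told apart. Over 9 skeletal muscle genes the sum was 1542 and 2277 FPKM in wildtype mice against 4311 to 5321 in the other 4 mice. All 9 were higher in both homozygous than in both wildtype mice, against 21.3% of all tested genes. Over 5 adipocyte genes it was 193.5 to 251.4 FPKM in wildtype, 202.1 to 272.9 in heterozygous and 335.1 to 399.8 in homozygous mice. The basal epithelial sum was 124.5 and 126.0 FPKM in homozygous mice against 129.9 to 186.2 in the other mice, and most of it came from Krt15. The mean log2 difference over the 4 basal genes was 0.162 in the other direction, and Trp63, the basal transcription factor, was higher in homozygous mice (5.54 and 5.94 FPKM) than in wildtype mice (3.19 and 3.86). Leukocyte (8.098 to 20.44 FPKM) and endothelial sums (23.15 to 39.22) were higher in both heterozygous than in both wildtype mice, and those of homozygous mice overlapped both genotypes. Smooth muscle (1512 to 2314 FPKM) and prostate secretion sums (32010 to 67960) overlapped between homozygous and wildtype mice. Spink1 was the largest part of the secretion sum in every mouse except mouse 41, where it had 11408 FPKM against 11512 of Pbsn. It was highest in mouse 39 (47210 FPKM) and mouse 47 (34822 FPKM). Within that list, Pbsn and Tgm4 were lower in both homozygous mice than in the other 4 mice, and Msmb, Spink1 and Sbpl overlapped between homozygous and wildtype mice. The luminal sum of mouse 47 (1684 FPKM) was not below that of mouse 49 (1570 FPKM). Yet mouse 47 had 257 FPKM of Pbsn against 7329 in mouse 49, and 131 of Tgm4 against 3179. The luminal list, and so the centring on it below, did not follow Pbsn and Tgm4 in mouse 47. No marker of the luminal, muscle or adipocyte lists was at 0 in any mouse.

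**Figure D3:**
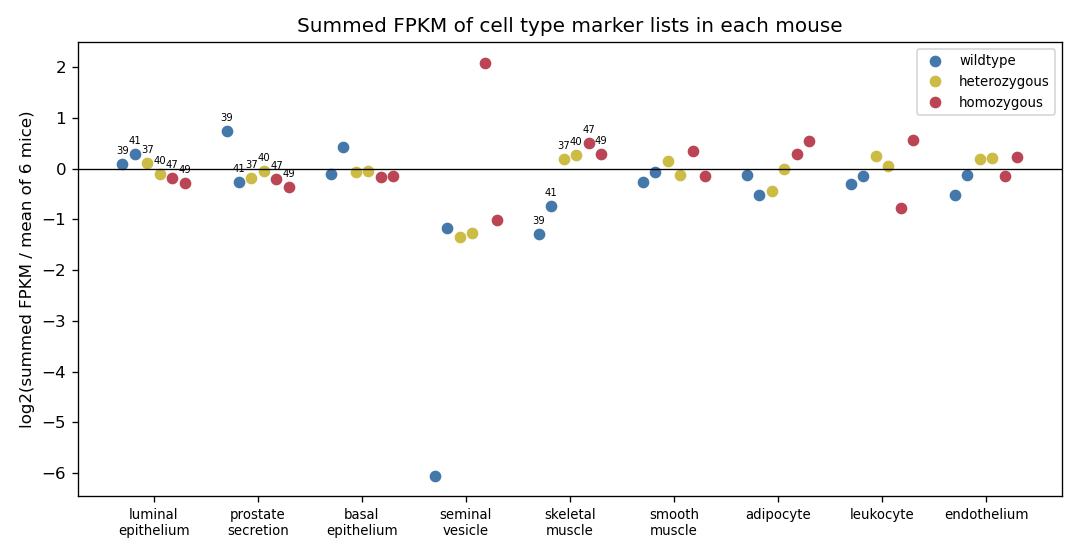
Summed FPKM of 9 cell type marker lists in each mouse, as log2 of the ratio to the mean of the 6 mice on the vertical axis, with 1 point a mouse and animal numbers for 3 lists. The luminal epithelium sum was lowest in both homozygous mice, the skeletal muscle sum was lowest in both wildtype mice, and the seminal vesicle sum was far lower in mouse 39 and far higher in mouse 47.

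When each mouse was centred on the mean of the luminal list, every homozygous difference from wildtype moved up by the same amount, since the list was lower in homozygous mice by 0.365. Tmprss2 went from -1.25 to -0.88 (limma adjusted p = 0.162), Hoxb13 from -0.69 to -0.32 (limma adjusted p = 0.329), Foxa1 from -0.74 to -0.37 (limma adjusted p = 0.294) and Slc45a3 from -0.64 to -0.27. Fkbp5 went from 0.42 to 0.79 (limma adjusted p = 0.181), Acpp from 0.01 to 0.37 and Pmepa1 from 0.27 to 0.63 (limma adjusted p = 0.102). This scaling shifted the median of all genes from -0.0413 to 0.324, and turned the 1288 lower and 1195 higher genes at an unadjusted p under 0.05 into 196 lower and 4000 higher, so the centred values have to be read against that shift. The order of the 7 differences among those of all other genes is the same on both scales, but the test results are not. The moderated F-test p rose from 0.0231 to 0.3175 for Foxa1 and from 0.0381 to 0.1115 for Tmprss2. For Pmepa1 it fell from 0.363 to 0.0425. On the centred scale 1 of the 7 genes, Pmepa1, met the study's criterion.

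**Figure D4:**
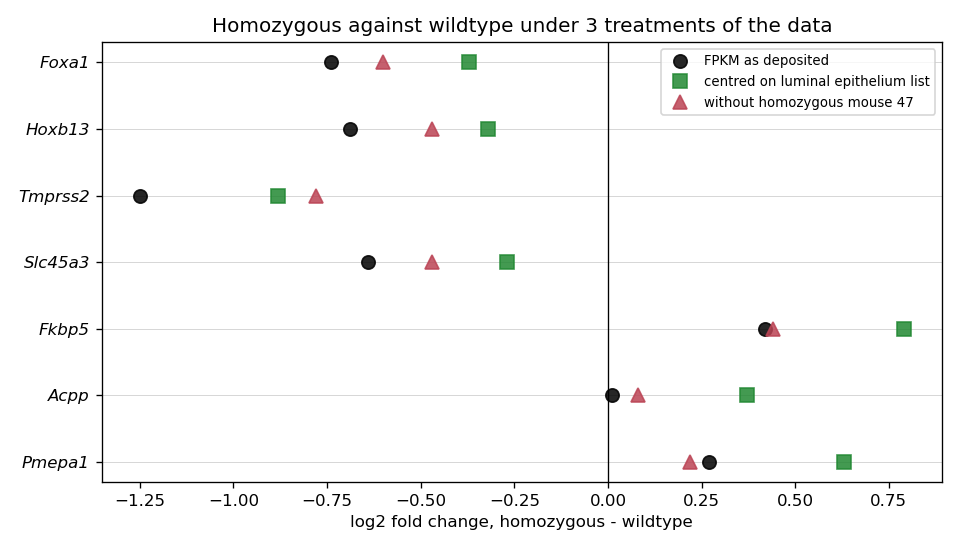
Log2 difference between homozygous and wildtype mice on the horizontal axis for the 7 genes, with circles for the deposited FPKM, squares for values centred on the luminal epithelium list and triangles for the fit without homozygous mouse 47. Foxa1, Hoxb13, Tmprss2 and Slc45a3 stayed below 0 in all 3, with Tmprss2 moving from -1.25 to -0.88 and -0.78.

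The remaining genes of the pathway were taken from lists of known androgen-responsive genes, receptor cofactors, epithelial transcription factors and glucocorticoid-responsive genes. Of 41 other androgen-responsive genes tested, 11 were lower and 11 higher in both homozygous mice than in both wildtype mice, where 28.7% of all tested genes were lower and 21.3% higher. The median log2 difference was 0.00543, against -0.0413 over all tested genes and -0.64 over the 7 genes described above. At an unadjusted p under 0.05 by limma, 8 of the 41 were lower and 4 higher. Among all 13818 tested genes, 1288 (9.32%) were lower and 1195 higher by that test. The study's criterion was met by 4 genes, 2 lower and 2 higher, and by 2 without mouse 47. Over all tested genes, 8.31% met the criterion on the deposited scale. Centred on the luminal list, the median was 0.371, against 0.324 over all tested genes. The criterion was then met by 8 of the 41, on a scale where 2015 of all 13818 tested genes met it.

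Sat1, which encodes a polyamine-degrading acetyltransferase, was the only gene of these lists called after adjustment on the deposited scale, and only for the slope. On the scale centred on the luminal list, the adjusted slope of 7 of the 41 androgen-responsive and 2 of the 11 glucocorticoid-responsive genes passed the threshold in limma. All of these but Sat1 rose, the direction in which that scaling moved all genes. For homozygous against wildtype, its median over all genes was 0.324, with 4000 higher and 196 lower at an unadjusted p under 0.05. The 2 counts are therefore not read as a result about these lists. Sat1 had 221 and 225 FPKM in wildtype mice 39 and 41, 151 and 158 in heterozygous mice 37 and 40, and 115 and 114 in homozygous mice 47 and 49. The values were ordered by allele number, with less spread within a genotype than between any 2 genotypes. The homozygous log2 difference of Sat1 was -0.96 (SE 0.12, limma adjusted p = 0.059), with an adjusted slope p of 0.0352 in limma, 0.0436 when centred and 0.165 without mouse 47. Abcc4, a membrane exporter of cyclic nucleotides, had 12 and 10.6 FPKM in wildtype mice, then 8.0 and 8.59 with 1 mutant allele and 5.41 and 7.61 with 2, a homozygous log2 difference of -0.80 (SE 0.19). Its homozygous difference was -0.56 without mouse 47. Lifr, a receptor subunit for leukemia inhibitory factor, went the other way, with 3.15 and 4.88 FPKM in wildtype mice, then 6.07 and 7.2 with 1 mutant allele and 12.9 and 9.62 with 2, a difference of 1.48 (SE 0.26). Hpgd, which inactivates prostaglandins, had 72.9 and 74.6 FPKM in wildtype mice, then 72.3 and 70.0 with 1 mutant allele and 133 and 103 with 2, a difference of 0.67 (SE 0.15). Unlike Foxa1 or Sat1, its heterozygous values lay level with the wildtype ones. Without mouse 47 the homozygous difference was 1.27 for Lifr and 0.48 for Hpgd.

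**Figure D5:**
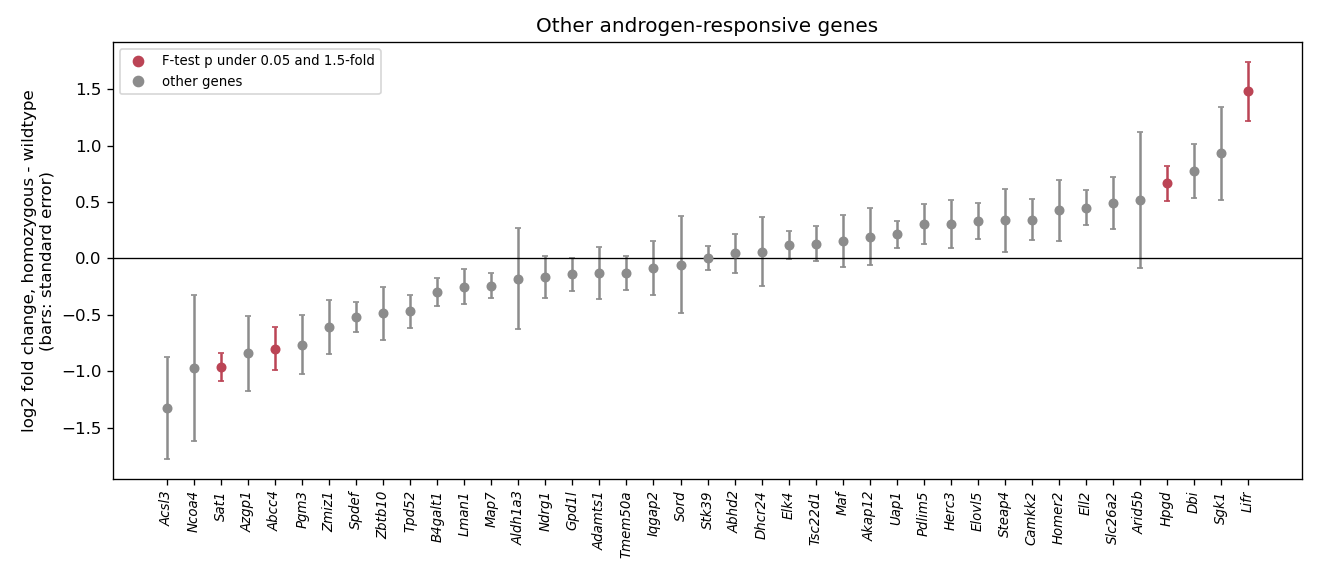
Log2 difference between homozygous and wildtype mice on the vertical axis for the 41 other androgen-responsive genes, ordered by that value, with bars for the standard error and red points for genes that met the study's criterion. Genes lay on both sides of 0, and the 4 that met the criterion were Sat1 and Abcc4 below 0 and Hpgd and Lifr above 0.

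Sgk1, the kinase gene whose promoter is shown above with the complete androgen response element, had 125 and 291 FPKM in wildtype mice 39 and 41, 228 and 229 in heterozygous mice 37 and 40, and 434 and 306 in homozygous mice 47 and 49. The homozygous values were the 2 highest, but the wildtype mice differed from each other by more than the heterozygous and homozygous mice did. The homozygous difference was 0.93 (SE 0.41, interval -0.09 to 1.95, limma adjusted p = 0.308). Without mouse 47 it was 0.68.

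Of 13 receptor cofactors, chaperones and 5-alpha-reductases, 0 met the study's criterion by limma and 2 had an unadjusted p under 0.05 for homozygous against wildtype. Of all 13818 tested genes, 8.31% met the criterion and 2483 had such a p by limma. The chaperone Hsp90ab1 had 669 and 687 FPKM in wildtype mice, 753 and 652 with 1 mutant allele and 433 and 505 with 2, a difference of -0.54 (SE 0.20, limma adjusted p = 0.250). The paper lists Hsp90ab1 among its differentially expressed genes. Here its moderated F-test p was 0.0478, and its largest difference of 1.498-fold fell just short of the 1.5-fold threshold. Of 10 other epithelial transcription factors tested, 0 met the criterion by limma and 0 had an unadjusted p under 0.05 in that comparison. Those with the smallest F-test p were 2 homeobox genes of the urogenital tract, Hoxa13 with a homozygous difference of 0.26 (SE 0.15) and Hoxa10 with one of -0.36 (SE 0.15).

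Because Fkbp5 also responds to glucocorticoids, 11 glucocorticoid-responsive genes were examined, of which 3 met the study's criterion and 1 without mouse 47. The metallothionein genes Mt1 and Mt2, which encode metal-binding proteins, were low in homozygous mice. Mt1 had 3080 and 4880 FPKM in wildtype mice, 4630 and 2700 with 1 mutant allele and 826 and 1790 with 2, a difference of -1.67 (SE 0.54, limma adjusted p = 0.217), and Mt2 differed by -1.47 (SE 0.48). Without mouse 47 these were -1.11 and -1. Pdk4, a kinase that restrains the entry of pyruvate into oxidation, was high in heterozygous mice, with 17.9 and 15.6 FPKM in wildtype mice, 20.2 and 30.2 with 1 mutant allele and 11.1 and 12.5 with 2. The 3 genes named were lower in homozygous than in wildtype mice, but the list went both ways. Both homozygous values lay below both wildtype values for 4 of the 11 genes and above for 4, against 28.7% and 21.3% of all tested genes. Tsc22d3, among the higher genes, had 42.0 and 36.9 FPKM in wildtype mice and 59.4 and 53.1 in homozygous mice. Its difference was 0.51 (SE 0.14), and its largest difference of 1.43-fold missed the 1.5-fold threshold. Of all tested genes, 8.31% met the criterion. The median homozygous difference of the 11 genes was 0.134.

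The genes whose pattern over the 6 mice was most like each of the 7 genes were found by Pearson's r of log2(FPKM + 0.1), among all tested genes. All 7 genes had partners with r of at least 0.981 among the 13818 genes, so the names are a description. Tmprss2 was most like Dhx38 (r = 0.999 over 6 mice) and Atp12a (r = 0.997), whose FPKM in mouse 47 was 14.8 against 28.7 to 62.0 in the others. Hoxb13 was most like Mfsd12 (0.998) and Slc35c2 (0.989), and Foxa1 was most like Rabgef1 (0.996) and Ccdc125 (0.993). Slc45a3 was most like Sdc4 (0.993) and Liph (0.992), Fkbp5 like Irf7 (0.985) and Chrm3 (0.981), and Acpp like Lrrc31 (0.992) and Mfhas1 (0.988). Pmepa1 was most like Plau (0.994), which had 6.08 FPKM in mouse 39 against 49.4 to 115 in the other mice, and Defb11 (0.992). Among the 7 genes themselves, Tmprss2 and Hoxb13 (r = 0.885) and Foxa1 and Slc45a3 (r = 0.878) were most alike by Pearson's r. Slc45a3 and Pmepa1 were most opposed (r = -0.921, n = 6 mice). The order differed by Spearman's rank correlation, which was 0.657 for Foxa1 and Slc45a3 and -0.657 for Slc45a3 and Pmepa1. By rank, Acpp and Slc45a3 were most alike (0.886) and Hoxb13 and Pmepa1 most opposed (-0.829). The points share the genotypes and the tissue content of the 6 libraries.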

How the data were processed

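Total RNA was isolated from snap-frozen prostates, and stranded mRNA libraries were sequenced as read pairs. The authors aligned the reads to GRCm38 (mm10) with HISAT and quantified genes with Cufflinks and Cuffnorm. The deposited values are 1 FPKM for each gene and mouse. Tool versions and the annotation are not given in the sources used here. Fragment counts are unknown, which leaves no count test and no sampling error for a single value. Groups were taken from the labels, which name no pairing, litter or batch and do not say whether mice of a genotype were litter mates.

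Genes whose FPKM averaged at least 1 across all mice were tested on log2(FPKM + 0.1) by limma 3.58.1 under R 4.3.3 (eBayes, intensity trend allowed), with all 3 genotypes in 1 fit, a separate fit for the number of mutant alleles, and Benjamini-Hochberg adjustment over all tested genes. Other calculations used Python 3.11.15. The script was tested on simulated data. Positions are from GENCODE M21 and promoters from RefSeq. The 7 genes and the lists were chosen with earlier results of these data known. Genes named from a list are those that met the study's criterion or, where none did, the 2 with the smallest F-test p. The 2 genes most like each of the 7 are also named, leaving out predicted and clone names. Sgk1 and Tsc22d3 were named outside this rule. The androgen receptor gene itself and 1 gene that this rule names are not reported here. Alternatives were a pseudocount of 1 or 0.01, no filter, a mean FPKM of at least 5, quantile, median and equal-sum scaling, centring on the luminal list, no intensity trend, each gene tested alone, and leaving out each mouse.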

Additional observations from a re-analysis of the deposited data

How the results depend on the processing

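No adjusted p of the 7 genes passed the threshold in any comparison under the alternatives run, which included leaving out each mouse. The homozygous differences of Foxa1, Hoxb13, Tmprss2 and Slc45a3 from wildtype stayed below 0 in all of them. The number of the 7 genes that met the study's criterion, 2 as reported, was 1 with no filter and with no intensity trend (Foxa1), with FPKM rescaled to the same sum (Tmprss2) and with centring on the luminal list (Pmepa1), and 0 with quantile normalization and with each gene alone. It ranged from 0 (without mouse 47) to 3 (without mouse 49) when a mouse was left out. The genes called over the whole table for homozygous against wildtype mice, 53 as reported, were 4 with no filter, 30 with the same sum, 373 when centred, 23 with no intensity trend and 0 with each gene alone, where 1081 lower and 868 higher genes had an unadjusted p under 0.05, and ranged from 4 (without mouse 37) to 96 (without mouse 49) when a mouse was left out. The genes that met the study's criterion, 1148 as reported, were 697 at a mean FPKM of at least 5, 2015 when centred and 593 with each gene alone, and ranged from 795 (without mouse 37) to 1858 (without mouse 49).

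Differences of Acpp, Fkbp5, Hoxb13, Slc45a3 and Pmepa1 changed direction under some alternatives. For Acpp these were the homozygous difference (-0.0074 with a pseudocount of 1, -0.099 with quantile normalization), the heterozygous difference (-0.036 with quantile normalization, -0.020 with the same sum), the slope (-0.0037 with a pseudocount of 1, -0.049 with quantile normalization) and the difference between homozygous and heterozygous mice (0.029 with the same sum, 0.17 when centred). The heterozygous difference of Fkbp5 was 0.12 when centred. Leaving out each mouse gave ranges for Acpp of -0.43 to 0.52 (heterozygous), -0.47 to 0.48 (homozygous), -0.15 to 0.067 (homozygous against heterozygous) and -0.21 to 0.20 (slope), in 3 of them set by wildtype mice 39 and 41. For Fkbp5 the range was -0.55 to 0.48 in heterozygous and -0.091 to 0.94 in homozygous mice, set by the same mice. The heterozygous difference ranged from -0.39 to 0.070 for Hoxb13, from -0.78 to 0.20 for Slc45a3 and from -0.0044 to 0.46 for Pmepa1, and Pmepa1 ranged from -0.010 to 0.092 between homozygous and heterozygous mice. Causes of these changes were not tested.

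With 2 mice a genotype and unknown fragment counts, differences of moderate size go uncalled, and a lone mouse is assumed to vary like the others where its pair is left out. Acpp did not pass the filter at a mean FPKM of 5. No paired analysis was possible because the animal numbers differ between genotypes.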
